A study of Mus musculus with 38 samples.

Results

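The genes described here are 8 genes for secreted proteins of the neuronal regulated pathway: the granins Chga, Chgb, Scg2, Scg3 and Scg5, the granin-related Vgf, and the neuronal pentraxins Nptx1 and Nptx2. They were taken by name, with earlier results of these data known, from the 22478 genes with a coding transcript in the deposited tables. Each was followed as ribosome footprints in the coding sequence (CDS) of its longest coding transcript in 38 libraries of 14 groups. Footprints are the stretches of mRNA that a ribosome shields from nuclease, so their number reads how much translation of an mRNA a sample held, and mRNA abundance and ribosome load per mRNA cannot be told apart in these libraries alone. The cells were primary mouse cortical neurons that expressed the biotin ligase TurboID from a doxycycline-induced lentivirus, either fused to elements of the postsynaptic protein PSD95 (TurboID-PSD95) or with no localization signal (Pan-TurboID). The cultures came from embryonic CD-1 mice and several dishes were pooled for each sample, as the study's methods state. Part of the ribosome fraction of each sample was kept as input, which reads the whole culture, and the rest went to a streptavidin pulldown of biotinylated ribosomes. All samples received cycloheximide (Chx), which halts ribosomes, for 2 min and then biotin for 30 min, per the labels, whereas the study's methods give a shorter biotin step after DHPG.

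The main experiment crossed resting and depolarized neurons with both baits and both fractions, 8 groups of 3 libraries. Depolarization was 55 mM KCl for 1 h after 2 h in tetrodotoxin (a sodium channel blocker) and DL-AP5 (an NMDA receptor blocker). A separate set held TurboID-PSD95 neurons given DHPG, which activates group I metabotropic glutamate receptors, at 100 µM for 10 min after the same silencing (3 inputs and 3 pulldowns). A further set held TurboID-PSD95 neurons with 20 nM siRNA against Eif4g2 (eIF4G2, a translation initiation factor) for 72 h by the labels (the methods allow a shorter time), resting or depolarized with KCl, in 4 groups of 2 libraries. The DHPG and knockdown sets hold no untreated or control-siRNA library of their own here, so treatment and experiment cannot be told apart wherever they were set against the main experiment. The labels list silencing for the depolarized and DHPG neurons and for no resting neurons, in the main and knockdown sets alike. By the labels, silencing therefore cannot be told apart from KCl or DHPG. Below, the KCl response is that of depolarized over resting libraries, silencing included.

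Granins are acidic proteins that are packed into dense-core vesicles, help to form them, and are cut into peptides that are released together with neuropeptides. Chga and Chgb are the chromogranins, Scg2 gives rise to the peptide secretoneurin, Scg3 binds chromogranin in the forming granule, and Scg5 encodes 7B2, the chaperone of the prohormone convertase Pcsk2. Vgf is a neurotrophin-inducible precursor of several neuropeptides. Nptx1 and Nptx2 (also called Narp) are secreted at synapses, where neuronal pentraxins cluster AMPA-type glutamate receptors, and Nptx2 is a classical activity-induced gene.

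Coordinates are those of mm10. Chga (ENSMUSG00000021194) lay at chr12:102555125-102564693 (plus strand, CDS of 1392 bases in 8 segments, 5′ UTR of 156 bases). Chgb (ENSMUSG00000027350) lay at chr2:132781734-132794829 (plus strand, CDS of 2034 bases in 5 segments, 5′ UTR of 456 bases). Scg2 (ENSMUSG00000050711) lay at chr1:79435151-79437004 (minus strand, CDS of 1854 bases in 1 segment, 5′ UTR of 179 bases). The Scg3 gene (ENSMUSG00000032181) was read over chr9:75643826-75683725 (minus strand, CDS of 1416 bases in 12 segments, 5′ UTR of 331 bases). Scg5 (ENSMUSG00000023236) was read over chr2:113776801-113827564 (minus strand, CDS of 639 bases in 5 segments, 5′ UTR of 130 bases), the shortest CDS of the set, with 22.0% of all genes shorter. Vgf (ENSMUSG00000037428) was read over chr5:137030986-137032839 (plus strand, CDS of 1854 bases in 1 segment, 5′ UTR of 468 bases). Nptx1 (ENSMUSG00000025582) was read over chr11:119542473-119547589 (minus strand, CDS of 1299 bases in 5 segments, 5′ UTR of 164 bases), and Nptx2 (ENSMUSG00000059991) over chr5:144546064-144556394 (plus strand, CDS of 1290 bases in 5 segments, 5′ UTR of 162 bases). No exon of another GENCODE gene on either strand overlapped these coding segments.

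The sequence around each start codon is shown because both the coding counts and the 5′ UTR counts used below are split at it. Each line gives the last 9 bases of the 5′ UTR, the start codon in capitals, and the next codon, read from the GENCODE transcript.
Chga: cggctcgctATGcgc
Chgb: agaggcaccATGcag
Scg2: ctttaagacATGgct
Scg3: caagaaagaATGggg
Scg5: cggttaaaaATGgcc
Vgf: ccgttggtcATGaaa
Nptx1: tccggagccATGctg
Nptx2: gtcagcgagATGctg
Chgb and Nptx2 each held 1 ATG in the 5′ UTR, Scg2 held 2 and Vgf held 5, and every one of these was followed in its frame by a stop codon upstream of the CDS. The single upstream ATG of Scg3 opened a frame that overlapped the start of the CDS. The 5′ UTRs of Chga, Scg5 and Nptx1 held none. Of the 20788 genes whose chosen transcript has a 5′ UTR in GENCODE, 55.2% had an ATG in it.

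RefSeq promoter sequences were at hand for 5 of the 8 genes (Chga, Chgb, Scg2, Scg3 and Scg5) on GRCm38.p6, the same assembly as mm10. The 100 bases upstream of the start site are printed for the 4 genes that carry a cAMP response element (CRE) or its half-site there, an element through which calcium and cAMP signals reach many activity-regulated genes. Capitals mark matches to the half-site letters CGTCA or TGACG.
Chga, chr12:102554841-102554940, plus strand: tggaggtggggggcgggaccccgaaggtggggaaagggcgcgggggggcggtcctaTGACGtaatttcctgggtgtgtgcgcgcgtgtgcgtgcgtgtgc
Chgb, chr2:132781542-132781641, plus strand: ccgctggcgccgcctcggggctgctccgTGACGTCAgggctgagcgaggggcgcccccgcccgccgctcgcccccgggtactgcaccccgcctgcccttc
Scg2, chr1:79440027-79440126, minus strand: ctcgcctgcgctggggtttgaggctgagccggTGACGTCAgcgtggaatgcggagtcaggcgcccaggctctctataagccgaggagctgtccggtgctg
Scg3, chr9:75684057-75684156, minus strand: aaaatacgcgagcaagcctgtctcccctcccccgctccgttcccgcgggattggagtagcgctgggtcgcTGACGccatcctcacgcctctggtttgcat
The full palindrome TGACGTCA began 72 bases upstream of the start site in Chgb and 68 bases upstream in Scg2, and 1.79% of the 32851 RefSeq promoters of 300 bases held it on either strand. Chga held a half-site 44 bases upstream and Scg3 held one 30 bases upstream. In Scg5 the nearest upstream half-site lay 175 bases from the start, and half-sites also lay 20 and 41 bases into the transcript. A half-site was present in 20.8% of all promoters, and each full palindrome contains a half-site on both strands. Chgb also held the Egr motif GCGNGGGCG 49 bases upstream on the minus strand, as did 5.55% of promoters. The AP-1 motif TGANTCA, held by 7.81% of promoters, matched none of the 5. TATAAA, held by 13.6%, matched only Chga, 6 bases into the transcript. These matches are letters in a window and say nothing of binding.

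Libraries held 5906281 to 35643247 aligned footprints, of which 2048604 to 14646402 fell in the coding sequences used. Every member had at least 78 CDS footprints in every library. In the inputs, the 5 neuronal markers Tubb3, Map2, Snap25, Syt1 and Rbfox3 summed to 4909 to 9170.0 CPM (counts scaled to each library's CDS total). The 5 GABAergic markers summed to 1030.0 to 1765 CPM in inputs of the main experiment and to 494 to 561 in knockdown inputs. Astrocyte markers (7 genes) summed to 564 to 1229 CPM in main inputs and 226 to 239 in DHPG inputs, and oligodendrocyte lineage markers (7 genes) to 157 to 574 and 60.2 to 67.2. Microglial markers (5 genes) summed to 0.758 to 4.67 CPM in main and DHPG inputs and 9.74 to 19.2 in knockdown inputs, and endothelial markers (4 genes) to 5.54 to 65.9 and 65.2 to 96.4 CPM. In bulk cultures, fewer cells of a type and less translation per cell cannot be told apart. All 10 immediate early genes checked rose with KCl in the inputs and in both pulldowns. Dlg4, which encodes PSD95 and whose elements are in the bait, stood at 337 to 5219.7 CPM in TurboID-PSD95 pulldowns and 15.7 to 50.1 in Pan-TurboID pulldowns.

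Per kilobase of CDS, the scale on which genes can be compared, Vgf and Scg5 led in the resting inputs of both baits. Vgf stood at 1632 ± 498 CPM per kb (mean ± SD, n = 6), Scg5 at 1254 ± 110.3 and Scg2 at 1167 ± 95.8. Ranges of these genes overlapped between neighbours. A middle band held Chgb at 647 ± 20.7, Scg3 at 612 ± 67.5 and Chga at 525 ± 57.6 CPM per kb. The pentraxins were lowest, Nptx2 at 149 ± 71.2 and Nptx1 at 55.4 ± 7.88 CPM per kb. Together the 8 coding sequences took 0.923% of CDS footprints in resting TurboID-PSD95 inputs (mean of 3 libraries), 0.509% in the matching pulldowns and 0.124% in DHPG pulldowns, the lowest group.

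The 14 groups were set in order of their mean CPM for each gene. Chga ran from 737 ± 105 CPM in resting TurboID-PSD95 inputs to 111 ± 7.28 in depolarized knockdown pulldowns, a 6.65-fold span of group means. Chgb had one of the widest spans, 12.1-fold, from 1319 ± 52.3 CPM in resting Pan-TurboID inputs to 109 ± 8.78 in DHPG pulldowns. Scg2 ran from 2303 ± 81.9 CPM in depolarized TurboID-PSD95 inputs to 217 ± 19.8 in DHPG pulldowns (10.6-fold). For Scg3 the ends were 903 ± 70.2 CPM in depolarized TurboID-PSD95 inputs and 167 ± 20.0 in DHPG pulldowns (5.42-fold). Scg5 had the narrowest span, 5.12-fold, between 1149.7 ± 136 CPM in depolarized TurboID-PSD95 inputs and 224 ± 23.5 in DHPG pulldowns. Vgf ranged from 3107 ± 1302 CPM in resting TurboID-PSD95 inputs to 291 ± 36.3 in DHPG pulldowns (10.7-fold). The pentraxins had their lowest levels in different groups. Nptx1 ran from 231 ± 55.5 CPM in depolarized TurboID-PSD95 inputs to 22.7 ± 0.457 in resting knockdown inputs (10.2-fold), whereas Nptx2 ran from 267 ± 58.6 CPM in depolarized TurboID-PSD95 inputs to 21.8 ± 1.27 in DHPG pulldowns (12.3-fold). With the 14 group means in order, most neighbours were not separated: of the 13 neighbouring pairs, library ranges failed to overlap in 7 for Chgb, 5 for Scg2 and Scg3, 4 for Scg5 and Vgf, and 3 for Chga, Nptx1 and Nptx2. For Nptx1 the top 4 places were the depolarized groups of the main experiment, followed by DHPG inputs, both depolarized knockdown groups and DHPG pulldowns, and the 6 resting groups were last.

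**Figure D1:**
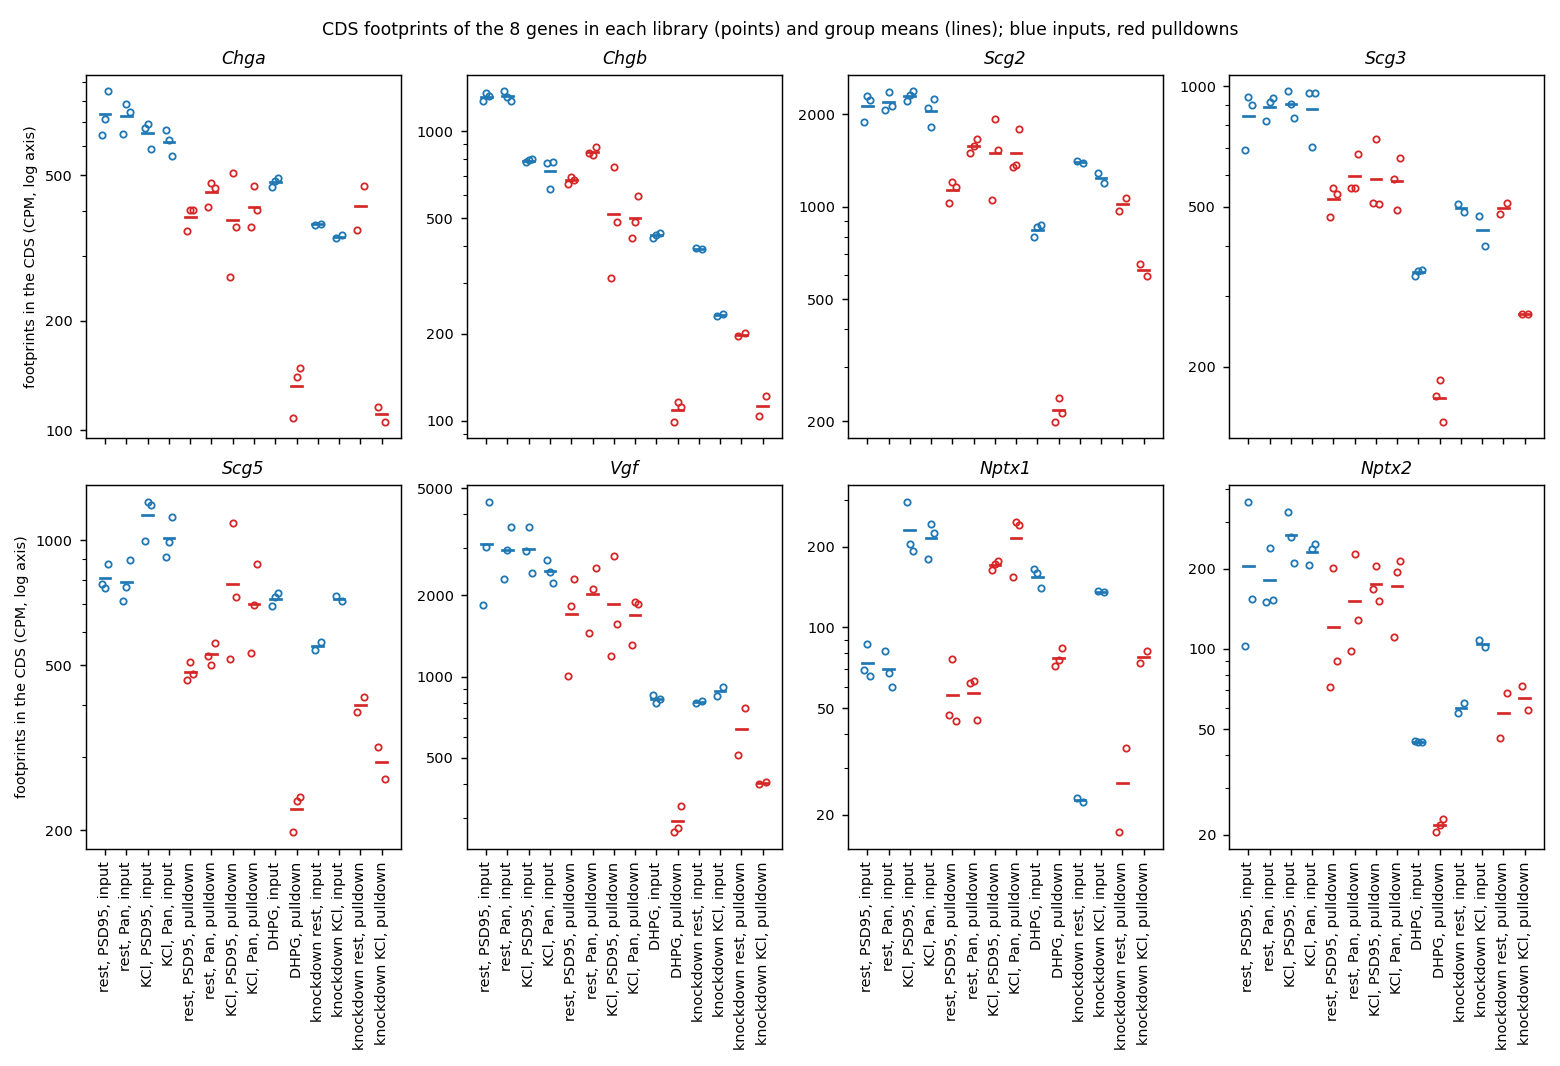
CDS footprints of each gene (CPM, log axis) in the 14 groups, with a point for each library and a line at the group mean. Inputs are blue and pulldowns red. Nptx1 spans 60.2 to 86.8 CPM in the 6 resting inputs and 179.8 to 294 in the 6 depolarized inputs, while the other genes are lowest in DHPG pulldowns or depolarized knockdown pulldowns.

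The first comparison asked which of these genes changed in the whole culture after 1 h of KCl. Of the 8, Nptx1 and Scg5 rose, Chgb fell, and 5 did not pass an FDR of 0.05 (edgeR quasi-likelihood test, Benjamini-Hochberg adjustment over 13019 genes). Over all genes tested, 15.4% passed. Nptx1 held 69.2, 86.8 and 65.7 CPM in resting TurboID-PSD95 inputs, 82.0, 67.8 and 60.2 in resting Pan-TurboID inputs, 294, 204 and 193 in depolarized TurboID-PSD95 inputs and 179.8, 243 and 225 in depolarized Pan-TurboID inputs (replicates 1, 2 and 3 in each list). All depolarized inputs lay above all resting inputs, a separation that 3.23% of genes showed upward and 7.24% downward. The fold change was 3.17 (log2 1.67 ± 0.17 (SE), adjusted p = 6.2e-08), the fit scaling libraries by TMM. The rise was found within each bait, at log2 1.66 and 1.68.

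Nptx2, the pentraxin known as an activity-induced gene, gave log2 0.39 ± 0.30 (SE), adjusted p = 0.42. Its resting inputs held 102, 357 and 154 CPM with TurboID-PSD95 and 151, 239.6 and 153 with Pan-TurboID, and its depolarized inputs 328, 264 and 211 and 206, 237 and 248. In resting neurons replicate 2 was the highest with either bait, and the depolarized values lay inside the resting range. Without replicate 2 the change was 0.94, adjusted p = 0.019. Nptx1 in those same 2 resting libraries was at 86.8 and 67.8 CPM, the first of these being the highest of the 6 resting inputs.

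Chgb had a narrow range at rest and fell with KCl. Resting inputs held 1271, 1352 and 1322 CPM (TurboID-PSD95) and 1375, 1309 and 1272 (Pan-TurboID), against 781, 792 and 799 and 777, 631 and 780.0 in depolarized inputs. Every depolarized library was below every resting library. The change was log2 -0.76 ± 0.14 (SE), adjusted p = 0.00057, and without replicate 3 it was -0.77, adjusted p = 0.059. Scg5, the 7B2 chaperone, went the other way. Its resting inputs held 783, 769 and 878 and 713, 769.6 and 895 CPM, its depolarized inputs 993, 1238 and 1218 and 910.2, 991 and 1138, with no overlap and a change of log2 0.46 ± 0.14 (SE), adjusted p = 0.028. The Scg5 call was lost without replicate 2 or 3 (0.49, adjusted p = 0.097 and 0.50, adjusted p = 0.19), within each bait, and when each library's trend with CDS length was removed (0.28, adjusted p = 0.085).

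The remaining granins gave small estimates. Chga held 644, 715 and 851 and 648, 785 and 745 CPM at rest and 675, 691 and 591 and 665, 623 and 565 after KCl (log2 -0.17 ± 0.14 (SE), adjusted p = 0.46). Scg2 held 1884, 2304 and 2226 and 2062, 2375 and 2127 CPM at rest and 2219, 2306 and 2383 and 2095, 1819 and 2248 after KCl (log2 0.04 ± 0.13 (SE), adjusted p = 0.88). Resting and depolarized libraries of both genes overlapped. Scg3 gave log2 0.07 ± 0.14 (SE), adjusted p = 0.78, with 694 to 942 CPM in resting and 704 to 973 in depolarized inputs. Vgf gave log2 -0.13 ± 0.23 (SE), adjusted p = 0.76, but its resting libraries were far apart: 1846, 3028 and 4446 CPM with TurboID-PSD95 and 2299, 2942 and 3595 with Pan-TurboID. In both baits replicate 1 was lowest and replicate 3 highest, and the resting pulldowns had the same order. Depolarized inputs held 2928, 3573 and 2429.5 and 2715, 2449.6 and 2231 CPM of Vgf. Its SE of 0.23 was wider than those of all but 1 other member, that of Nptx2 (0.30).

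The pulldowns asked the same of ribosomes near the postsynaptic bait and near the unlocalized bait. In TurboID-PSD95 pulldowns Nptx1 and Scg5 rose, 2 of 8 members, against 6.59% of all genes. Nptx1 held 47.1, 76.6 and 44.9 CPM at rest and 163, 172 and 177 after KCl (log2 1.61 ± 0.24 (SE), adjusted p = 0.00011). The lowest depolarized library was above the highest resting library, as for 8.18% of genes. For Scg5, 459, 509 and 475 CPM at rest became 516, 1101 and 730.4 (log2 0.71 ± 0.20 (SE), adjusted p = 0.032). Depolarized replicate 2 was far above the others. Leaving out replicate 2 gave 0.47, adjusted p = 0.41, and leaving out replicate 3 gave 0.74, adjusted p = 0.27. In a fit of only the groups compared it was 0.69, adjusted p = 0.26. With the CDS length trend removed the change was 0.42, adjusted p = 0.11. Chgb held 655, 697 and 677 CPM at rest and 310.1, 753 and 486 after KCl, overlapping, and did not pass (log2 -0.38 ± 0.20 (SE), adjusted p = 0.28). Estimates that did not pass were those of Chga (-0.01 ± 0.20), Scg2 (0.42 ± 0.19), Scg3 (0.18 ± 0.20), Vgf (0.11 ± 0.33) and Nptx2 (0.53 ± 0.42). Depolarized replicate 1 of this fraction was the lowest of its group for Chga, Chgb, Scg2, Scg5 and Vgf, and replicate 2 the highest.

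In Pan-TurboID pulldowns Nptx1 rose and Chgb fell, again 2 of 8, against 5.03% of all genes. Nptx1 went from 61.9, 63.4 and 45.1 to 154, 248 and 242 CPM (log2 1.97 ± 0.24 (SE), adjusted p = 4.6e-06). Chgb went from 838, 830.0 and 882 to 427, 485 and 598 CPM (log2 -0.71 ± 0.20 (SE), adjusted p = 0.041). Neither pair of groups overlapped, as was so upward for 9.36% and downward for 15.8% of genes. The Chgb call was lost without replicate 2 or 3 (-0.66, adjusted p = 0.18 and -0.76, adjusted p = 0.38), with no low-count filter and with the length trend removed (-0.58, adjusted p = 0.12). Scg5 stood at log2 0.45 ± 0.20 (SE), adjusted p = 0.22. The values of Chga (-0.08 ± 0.20), Scg2 (-0.02 ± 0.19), Scg3 (0.01 ± 0.20), Vgf (-0.22 ± 0.33) and Nptx2 (0.23 ± 0.42) did not pass.

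**Figure D2:**
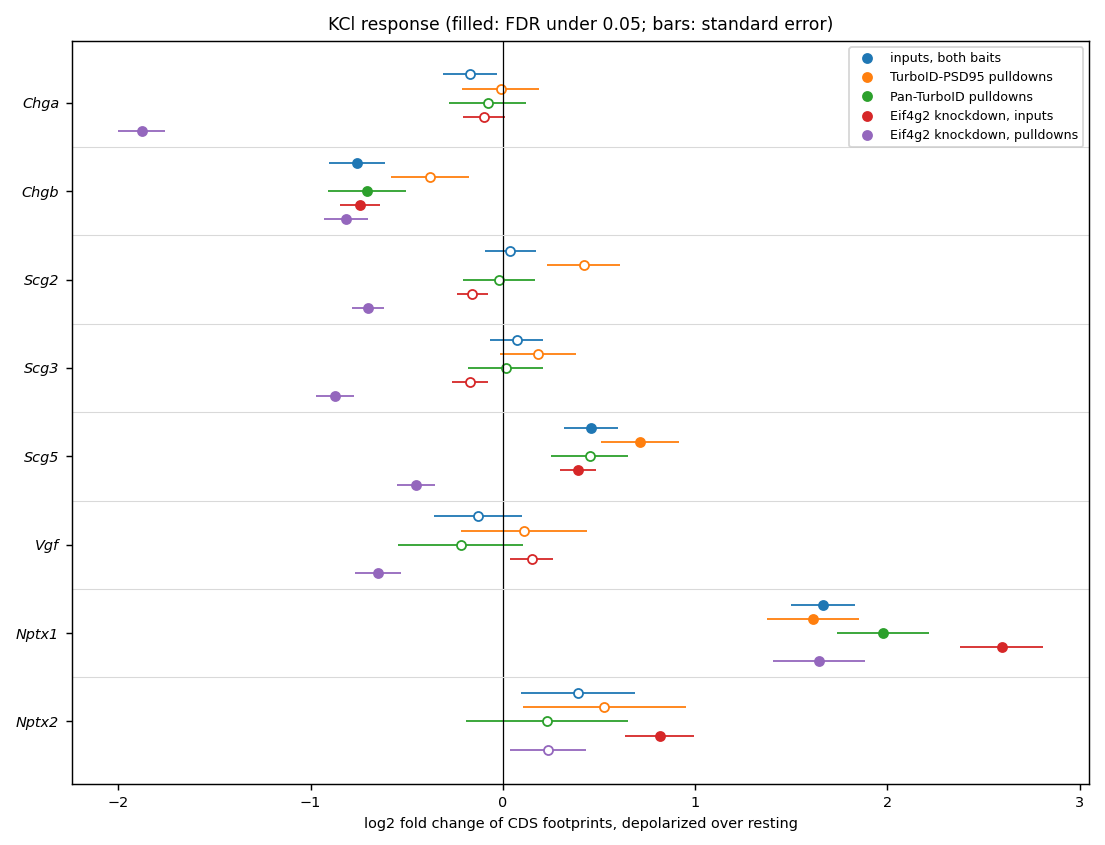
Log2 fold change of CDS footprints with KCl (depolarized over resting) for each gene in 5 comparisons, with bars for the standard error and filled points past an FDR of 0.05. Nptx1 is above 1.5 in all 5, Chgb is below 0 in all 5, and the knockdown pulldowns lie apart from the other comparisons for Chga, at -1.88.

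Footprints in the 5′ UTR were counted separately and set on the CDS library sizes. Reads were placed by their 5′ end with no offset, so ribosomes at the start codon and the first codons can count toward the 5′ UTR. These counts therefore do not measure upstream translation alone. In the inputs Nptx1 was the only member to pass with KCl (log2 2.23 ± 0.38 (SE), adjusted p = 9.8e-05), where 0.442% of 10186 genes did. Its 5′ UTR held 124, 100 and 36 footprints in resting TurboID-PSD95 inputs and 171, 306 and 522 in depolarized ones. Without replicate 3 the change was 2.11, adjusted p = 0.29. The median 5′ UTR change with KCl over all genes was 0.17 (log2) in inputs and 0.65 in TurboID-PSD95 pulldowns. The pulldown median was 0.33 without replicate 2, where 6 genes passed, and 0.65 without replicate 3, where 0 passed. Summed over 7699 genes, depolarized TurboID-PSD95 pulldowns held 5.29 to 22.1 5′ UTR footprints per 100 CDS footprints. The resting TurboID-PSD95 pulldowns held 5.65 to 10.9, so the libraries overlapped. In those pulldowns no member passed, 3 at an unadjusted p under 0.05, and 0.275% of genes did (28, and 1383 unadjusted), and the Nptx1 estimate was log2 2.09 ± 0.57 (SE), adjusted p = 0.094. With the likelihood ratio test the Nptx1 adjusted p there was 0.026, and with the replicate number as a block Nptx1 (2.18, adjusted p = 0.0017) and Vgf (1.18, adjusted p = 0.038) passed, with 2.08% of genes. Nptx1 also passed on library sizes of the 5′ UTR counts (1.62, adjusted p = 0.015) and without replicate 1 (1.91, adjusted p = 0.026). On those sizes 143 genes rose and 46 fell in inputs and 34 rose and 12 fell in the pulldowns, against 45 and 28 that rose and none that fell as reported. The other 5′ UTR estimates were Chga (0.61 ± 0.35), Scg2 (0.54 ± 0.35), Scg3 (0.41 ± 0.35), Scg5 (0.51 ± 0.33), Vgf (0.58 ± 0.34) and Nptx2 (0.76 ± 0.39) in the inputs and Chga (0.98 ± 0.50), Chgb (0.62 ± 0.49), Scg2 (0.89 ± 0.50), Scg3 (1.01 ± 0.50), Scg5 (0.87 ± 0.47), Vgf (1.21 ± 0.49) and Nptx2 (0.65 ± 0.57) in the TurboID-PSD95 pulldowns.

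5′ UTR footprints were also set against the CDS footprints of the same gene. This ratio is of counts and is not corrected for length, so it does not rank genes. Scg2, for one, has a 5′ UTR of 179 bases and a CDS of 1854, and Chga 156 and 1392. In resting inputs Scg2 had 4.93 ± 0.770 5′ UTR footprints per 100 CDS footprints (mean ± SD, n = 6), Chgb 10.3 ± 1.76, Vgf 12.5 ± 2.10, Chga 12.5 ± 2.97 and Scg5 12.6 ± 1.62. Nptx1 had 19.6 ± 4.54, Scg3 20.1 ± 2.49 and Nptx2 22.9 ± 5.87. Chgb had 21.0 ± 5.98 in depolarized inputs, where its CDS footprints fell and its 5′ UTR estimate was log2 0.24 ± 0.34. Its resting libraries lay between 8.89 and 13.1 and its depolarized libraries between 12.9 and 30.7, with only the lowest depolarized library inside the resting range. Chga had 21.7 ± 5.49 and Vgf 20.8 ± 5.94 in depolarized inputs, neither with a called change of its CDS footprints. Scg2 had 7.03 ± 1.43, Nptx1 29.4 ± 5.04, Nptx2 28.5 ± 5.01, Scg3 26.4 ± 7.69 and Scg5 13.0 ± 1.91. Over the 7699 genes with a mean of at least 100 CDS counts, the group mean of the summed ratio was 23.7 and 24.3 in resting inputs of the 2 baits and 31.4 and 26.9 in depolarized inputs. These shares were not tested.

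**Figure D3:**
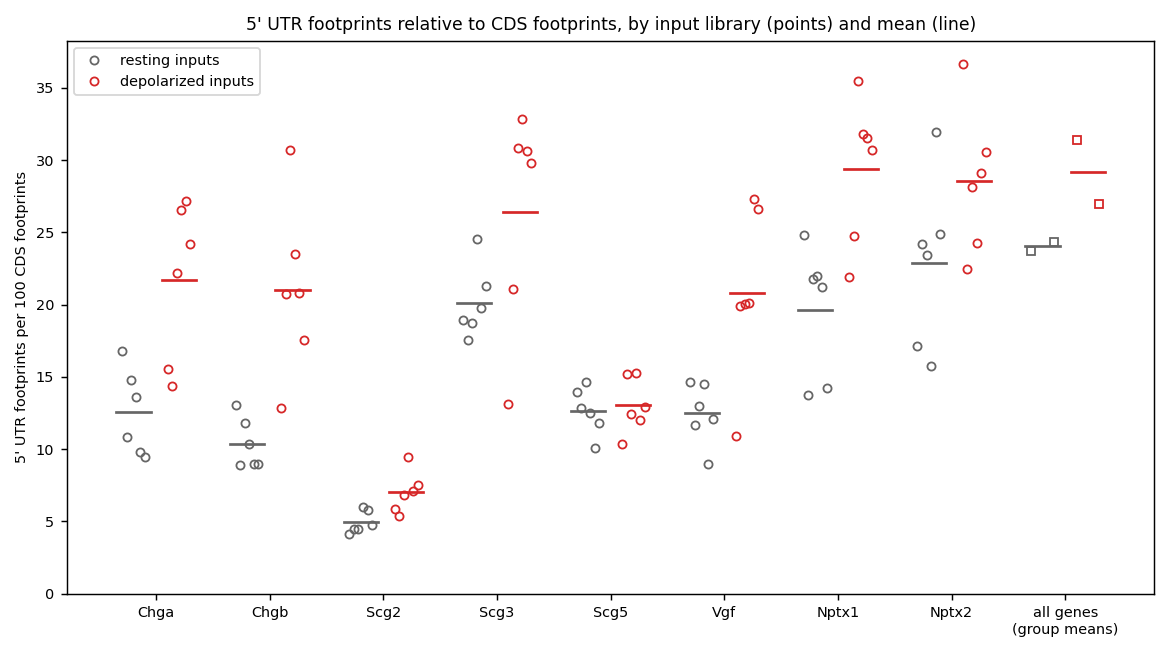
5′ UTR footprints per 100 CDS footprints in the 6 resting (grey) and 6 depolarized (red) inputs, a point for each library and a line at the mean, with the 2 bait groups' values over 7699 genes as squares. Scg2 has the lowest ratio in either condition, without correction for the lengths of 5′ UTR and CDS, and Scg5 is at 12.6 and 13.0.

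The 3′ UTRs held few footprints, with 0 to 16 in any library for the 5 granins. Vgf had 9 to 131 in every library, and Nptx1 and Nptx2 reached 46 and 62. CDS counts of Vgf ran from 864 to 36867 per library, those of Nptx1 from 78 to 3354 and of Nptx2 from 125 to 2626. In replicate 1 of the depolarized Pan-TurboID pulldowns Nptx2 had 62 in the 3′ UTR and 354 in the CDS, and Vgf had 31 and 4172. Relative to its CDS, Vgf was thus below Nptx2 in that library. Within the CDS, footprint density fell off toward the 3′ end in both pentraxins. Over the CDS mean of 1, segment 3 of 5 had 1.57 ± 0.23 in Nptx1 and 1.59 ± 0.16 in Nptx2 (resting inputs, mean ± SD, n = 6). Segment 4 dropped to 0.425 ± 0.17 and 0.385 ± 0.1, and segment 5 to 0.492 ± 0.15 and 0.401 ± 0.096. In Scg5 the first segment, with the start codon, went from 1.45 ± 0.06 to 1.74 ± 0.16 with KCl and the third from 1.12 ± 0.16 to 0.724 ± 0.13. The mean of the first segment was also higher with KCl in the other members with more than 1 segment. How many of all genes show this was not counted, so it cannot be called particular to these genes. It went from 0.383 ± 0.085 to 0.670 ± 0.37 in Chga, 0.278 ± 0.14 to 0.897 ± 0.37 in Chgb and 0.579 ± 0.13 to 1.12 ± 0.28 in Scg3. In Nptx1 it went from 1.135 ± 0.16 to 1.37 ± 0.27 and in Nptx2 from 0.939 ± 0.15 to 1.15 ± 0.074. These profiles were not tested. Counts were assigned by the 5′ end of each read with no offset, so each profile sits a little upstream of the ribosome's active site.

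**Figure D4:**
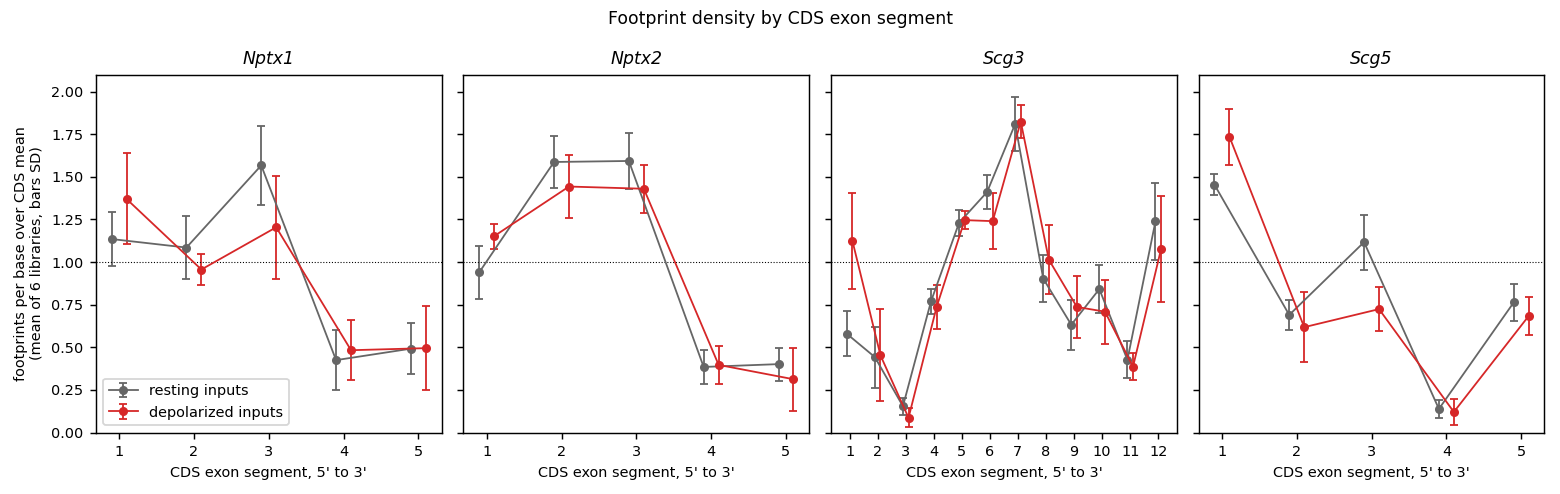
Footprint density in each CDS exon segment, 5′ to 3′, divided by the density over the whole CDS, for Nptx1, Nptx2, Scg3 and Scg5 in resting (grey) and depolarized (red) inputs, as mean and SD of 6 libraries. Both pentraxins drop below 0.5 in their last 2 segments.

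Setting pulldowns against inputs asked whether the genes' footprints were richer near the bait than in the whole culture. In resting neurons the granins and Vgf were lower in the TurboID-PSD95 pulldowns. Chga, Chgb, Scg2, Scg3, Scg5 and Vgf were lower in the pulldown, 6 of 8, while 16.4% of all genes were lower. Scg2 held 1033, 1205 and 1161 CPM in the pulldowns against the 1884 to 2375 of the 6 inputs (log2 -0.90 ± 0.17 (SE), adjusted p = 0.00090). Chga held 352, 401 and 401 (log2 -0.90 ± 0.18 (SE), adjusted p = 0.0013) and Chgb 655, 697 and 677 (log2 -0.93 ± 0.18 (SE), adjusted p = 0.0012), all below every resting input of the same gene, as 21.9% of genes were. Scg5 gave log2 -0.71 ± 0.18 (SE), adjusted p = 0.0054. Scg3 held 472, 558 and 539 CPM (log2 -0.70 ± 0.18 (SE), adjusted p = 0.0051). For Vgf, 1008, 1834 and 2295 CPM followed the replicate order of its inputs and overlapped them (log2 -0.79 ± 0.29 (SE), adjusted p = 0.043). The Vgf call was lost without replicate 2 or 3 (adjusted p = 0.17 in both), against the bait's own input (0.066), with only the groups compared (0.16), with no low-count filter (0.065) and with the transcript of highest count (0.050), at estimates of -0.82 to -0.74. The pentraxins did not pass, Nptx1 at log2 -0.31 ± 0.21 (SE), adjusted p = 0.26 and Nptx2 at -0.63 ± 0.38 (SE), adjusted p = 0.21.

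By the methods a pulldown and its own bait's input shared a ribosome fraction, which the other bait's input did not. Equal replicate numbers were taken as such a pair, and the fits above did not use it. The block used next joined both baits of a condition and replicate number, so the pair alone was not fitted. With the replicate number as a block 7 of 8 members were lower at rest, Nptx2 included (-0.68, adjusted p = 0.0023), as were 22.9% of all genes in that fit. Without replicate 3, and without the block, no member passed at rest and 16 of 13213 genes did, with estimates from -0.94 to -0.61 for the 6 genes. The Scg5 depletion moved with the treatment of CDS length. With each library's trend in CDS length removed it was -0.15, adjusted p = 0.47, whereas Chga, Chgb, Scg2 and Scg3 passed in that setting.

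In depolarized neurons Chga, Chgb, Scg2 and Scg3 were lower in the pulldown, 4 of 8, against 6.84% of all genes. Chga held 264, 508 and 362 CPM (log2 -0.74 ± 0.18 (SE), adjusted p = 0.0078), all below the 6 depolarized inputs, as 4.07% of genes were. Scg3 gave log2 -0.59 ± 0.18 (SE), adjusted p = 0.022, Chgb -0.55 ± 0.18 (SE), adjusted p = 0.035 and Scg2 -0.52 ± 0.17 (SE), adjusted p = 0.030. The values of Scg5 (-0.45 ± 0.18), Vgf (-0.55 ± 0.29), Nptx1 (-0.37 ± 0.20) and Nptx2 (-0.49 ± 0.37) did not pass. With the replicate block all members but Nptx1 passed, 7 of 8, among them Scg5 (-0.49, adjusted p = 0.0058), Vgf (-0.59, adjusted p = 0.0042) and Nptx2 (-0.50, adjusted p = 0.027), and 15.9% of all genes were lower in that fit. None of the 4 passed without replicate 1, without replicate 3 or with only the groups compared, fits in which 280, 0 and 4 of all genes were lower (891 as reported). Without replicate 1 Chga was at -0.46, adjusted p = 0.10, Chgb at -0.23, adjusted p = 0.43, Scg2 at -0.29, adjusted p = 0.27 and Scg3 at -0.40, adjusted p = 0.17. Without replicate 2 the Chgb value was -0.97, adjusted p = 0.0068, and Scg5 passed at -0.76, adjusted p = 0.023. Against the bait's own input, Chgb (-0.58, adjusted p = 0.057) and Scg3 (-0.58, adjusted p = 0.050) missed the threshold, and Scg5 passed with DESeq2 (-0.45, adjusted p = 0.030). The depolarized change minus the resting change passed for none of the 8 genes, with estimates from -0.06 (Nptx1) to 0.38 (Chgb) and 0.0% of all genes passing (edgeR quasi-likelihood). At an unadjusted p under 0.05 there were 0 members and 343 genes, and 2 genes passed with the likelihood ratio test and 1 with DESeq2.

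The unlocalized bait was followed in the same way. In Pan-TurboID pulldowns against their own inputs, rest and KCl together, Chga (-0.59 ± 0.14, log2 ± SE), Chgb (-0.54 ± 0.14), Scg2 (-0.41 ± 0.13), Scg3 (-0.54 ± 0.14) and Scg5 (-0.51 ± 0.14) were lower, 5 of 8, with 17.4% of all genes lower. Vgf was at -0.50 ± 0.23 (SE), adjusted p = 0.099, and with the block at -0.51, adjusted p = 0.0012. Vgf also passed with only the groups compared (-0.47, adjusted p = 0.027). Nptx1 gave -0.11 ± 0.16 (SE), adjusted p = 0.63 and Nptx2 -0.29 ± 0.30 (SE), adjusted p = 0.48. The Scg5 value was -0.03, adjusted p = 0.86 with the length trend removed, and without replicate 3 none of the 5 passed (1280 genes did, 4450 as reported). Scg2 (-0.37, adjusted p = 0.095) and Scg5 (-0.49, adjusted p = 0.054) were also lost without replicate 2. TurboID-PSD95 minus Pan-TurboID depletion ran from -0.36 (Nptx2) to -0.08 (Scg3) in the members and passed for none (0 at an unadjusted p under 0.05). Over all genes 0.00768% passed that test, 169 genes had an unadjusted p under 0.05, and the median was 0.01. The share of all genes below 0 was not counted, so the common sign of the members is not a result about them.

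**Figure D5:**
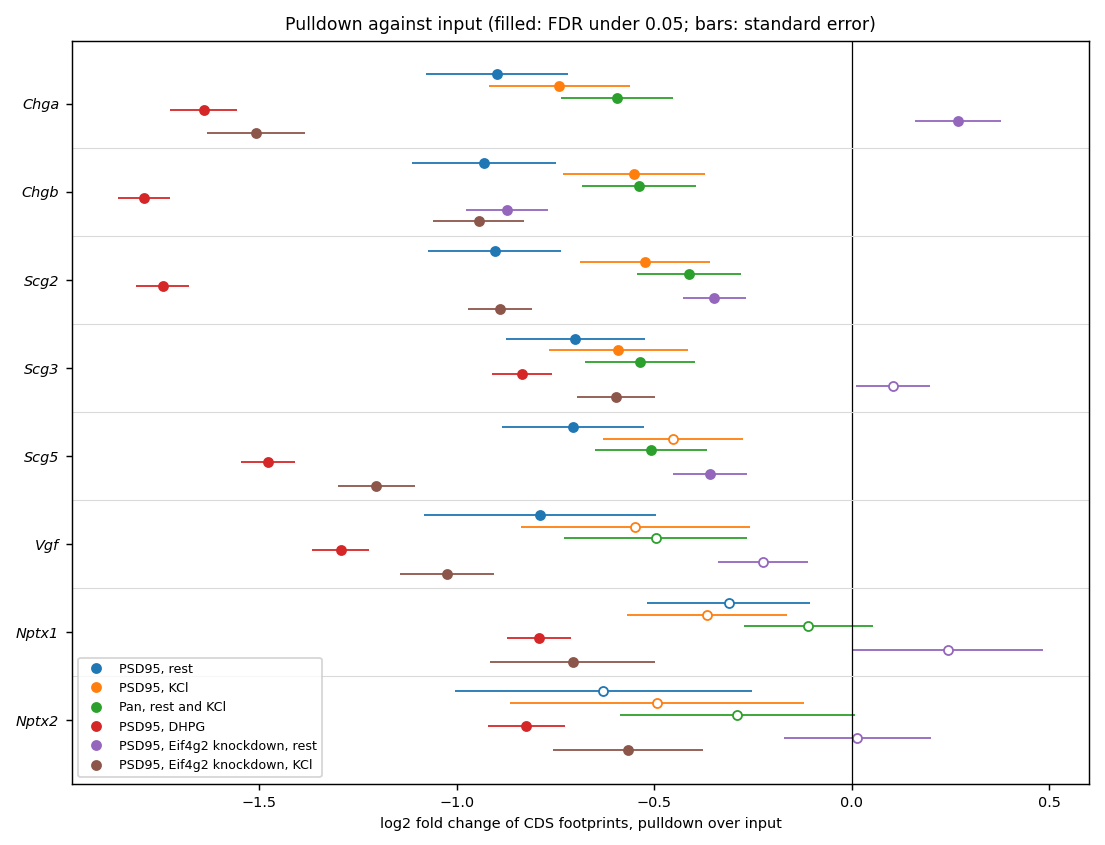
Log2 fold change of CDS footprints in the pulldown over the input for each gene in 6 comparisons, with bars for the standard error and filled points past an FDR of 0.05. All points lie below 0 except resting knockdown values of Chga, Scg3, Nptx1 and Nptx2, and the DHPG values reach -1.79 for Chgb.

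Lists of other genes of the regulated secretory pathway held calls in both directions, where 6.32% of all genes rose and 9.03% fell in the KCl inputs. Of 8 prohormone processing genes tested in the KCl inputs, Pcsk1n, which encodes the inhibitor proSAAS, rose (log2 0.61 ± 0.20), while the amidating enzyme Pam (-0.76 ± 0.15) and the convertase Furin (-1.39 ± 0.27) fell. Of 15 genes for dense-core vesicle biogenesis and release, the vesicle calcium sensor gene Syt4 rose (0.60 ± 0.20) and Cadps2, Ptprn2 and Ccdc186 fell (-0.69 ± 0.17, -0.63 ± 0.14 and -0.78 ± 0.24). Of 15 neuropeptide precursors tested of 16, Adcyap1, which encodes PACAP, fell (-1.02 ± 0.26). The list medians were -0.03, -0.06 and 0.62, against -0.01 for all genes. In TurboID-PSD95 pulldowns Furin alone of these passed with KCl (-1.45 ± 0.38), where 3.31% of all genes rose and 3.28% fell. Among the pentraxin receptor gene Nptxr and the AMPA receptor subunit genes Gria1 to Gria4, Gria1 rose in the inputs (0.83 ± 0.21) and none passed in the TurboID-PSD95 pulldowns.

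Between pulldown and input the lists took both sides. Of all genes, 14.7% were higher and 16.4% lower in the resting TurboID-PSD95 pulldown, and 11.2% and 6.84% after KCl. In resting neurons 6 of the 15 vesicle genes were richer in the TurboID-PSD95 pulldown, among them Hid1 (0.71 ± 0.20), Syt4 (0.82 ± 0.23) and Rab2a (0.54 ± 0.16), and Stx6 was lower (-0.84 ± 0.32). All of Gria1 to Gria4 were richer, from 0.90 ± 0.25 for Gria1 to 1.24 ± 0.39 for Gria3. Of the 8 processing genes Pcsk1n (-1.0 ± 0.26) was lower and none higher, and of the 15 neuropeptide precursors somatostatin Sst (-1.12 ± 0.36) and the nociceptin precursor Pnoc (-0.98 ± 0.37) were lower and none higher. List medians were 0.24 for processing genes, 0.40 for vesicle genes, 1.02 for the receptor genes, -1.05 for neuropeptide precursors and -0.75 for the 8 members, with -0.04 over all genes. After KCl, Cadps2 (1.09 ± 0.20), Ica1 (0.60 ± 0.19) and Hid1 (0.60 ± 0.20) were richer among vesicle genes, Pam (0.60 ± 0.19) was richer and Pcsk1n (-0.75 ± 0.26) lower among processing genes, and Gria4 (1.03 ± 0.24) was the only receptor gene to pass.

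In the other pulldowns the same lists were counted as higher and lower than input. With Pan-TurboID these were 1 and 1 of 8 processing genes, 7 and 2 of 15 vesicle genes, 0 and 5 of 15 neuropeptide precursors and 4 and 0 of 5 receptor genes, where 16.8% and 17.4% of all genes were called. In the DHPG set the counts were 5 and 1 of 8 processing genes, 9 and 3 of 15 vesicle genes, 0 and 13 of 14 neuropeptide precursors and 5 and 0 of 5 receptor genes, against 40.5% and 39.3% of all genes. In resting knockdown neurons they were 3 and 1 of 8 processing genes, 2 and 3 of 14 vesicle genes, 2 and 2 of 10 neuropeptide precursors and 5 and 0 of 5 receptor genes, against 22.1% and 23.4%. In depolarized knockdown neurons they were 2 and 2 of 8 processing genes, 6 and 2 of 14 vesicle genes, 0 and 6 of 10 neuropeptide precursors and 4 and 0 of 5 receptor genes, against 24.0% and 24.8%.

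In the DHPG set every member was lower in the pulldown than in the input, 8 of 8, where 39.3% of 12273 genes were lower. Chgb held 427, 439.5 and 445 CPM in inputs and 99.4, 116 and 111 in pulldowns (log2 -1.79 ± 0.07 (SE), adjusted p = 1.3e-13). Scg2 held 798, 859 and 872 and 199.7, 239 and 214 (log2 -1.74 ± 0.07 (SE), adjusted p = 2.2e-13). No pulldown overlapped an input in any of the 8 genes, with every pulldown lower, which was the case for 45.7% of all genes (80.0% did not overlap in either direction). Chga (464, 481 and 491 against 108, 140.1 and 148 CPM) gave log2 -1.64 ± 0.08, Scg5 (694, 730.0 and 745 against 197, 235 and 241) -1.48 ± 0.07 and Vgf (857, 796 and 823 against 265, 276 and 332) -1.29 ± 0.07. Scg3 (-0.83 ± 0.08), Nptx2 (-0.82 ± 0.10) and Nptx1 (-0.79 ± 0.08) had the smaller depletions. With the length trend removed Scg5 was at -0.65, adjusted p = 3.4e-08. With library totals in place of TMM the median of all genes moved by -0.21 (log2) here.

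Against the resting TurboID-PSD95 inputs of the main experiment, which also serve as the KCl controls, 7 of 8 members differed in DHPG inputs, as did 32.8% of 12803 genes. Nptx1 was higher, at 165, 159 and 139.8 CPM against 69.2, 86.8 and 65.7 (log2 1.16 ± 0.18 (SE), adjusted p = 0.00018). Nptx2 was lower, at 44.9, 44.7 and 44.5 CPM against 102, 357 and 154 (log2 -2.10 ± 0.52 (SE), adjusted p = 0.013). The 2 pentraxins thus lay on opposite sides, with no overlap of libraries in either. Over all genes 21.1% lay wholly above and 31.4% wholly below. Without replicate 2 Nptx2 was at -1.39, adjusted p = 0.0016. Chgb (-1.49 ± 0.10 (SE), adjusted p = 4.2e-08), Scg2 (-1.24 ± 0.11), Scg3 (-1.20 ± 0.13), Vgf (-1.82 ± 0.36) and Chga (-0.52 ± 0.13) were lower, and Scg5 was at -0.06 ± 0.10 (SE), adjusted p = 0.68. In the pulldowns all 8 differed, among 47.7% of genes, with Nptx1 higher (0.67 ± 0.19 (SE), adjusted p = 0.0077) and Chga (-1.30 ± 0.13), Chgb (-2.40 ± 0.10), Scg2 (-2.15 ± 0.12), Scg3 (-1.42 ± 0.13), Scg5 (-0.87 ± 0.11), Vgf (-2.33 ± 0.36) and Nptx2 (-2.26 ± 0.53) lower. With CDS totals in place of TMM, 1541 genes were higher and 2659 lower in the inputs (2081 and 2118 as reported) and 1723 higher and 4698 lower in the pulldowns (2784 and 3325), and Nptx1 in the pulldowns was at 0.44, adjusted p = 0.043. With the length trend removed Scg5 in the pulldowns was at -0.57, adjusted p = 0.00026. The Nptx1 pulldown call was lost without replicate 1 or 3 (0.56, adjusted p = 0.083 and 0.48, adjusted p = 0.13), and without replicate 2 the value was 1.03, adjusted p = 0.00068. In the inputs the Chga call was lost without replicate 2 or 3 (-0.53, adjusted p = 0.066 and -0.42, adjusted p = 0.080), and the Vgf call without replicate 2 (-1.79, adjusted p = 0.10). Astrocyte and oligodendrocyte lineage markers were lower in DHPG inputs than in main inputs (values above). Of 5 neuronal markers 2 were higher and 0 lower in these inputs, and 1 was higher and 4 were lower in the pulldowns. There 7 of 7 astrocyte and 5 of 7 oligodendrocyte lineage markers were lower and 0 higher. Of the 10 immediate early genes 1 was higher and 7 were lower in DHPG inputs, with Fos at 37.5 to 41.4 CPM against 184 to 465 in the resting inputs and Arc at 31.1 to 34.3 against 11.5 to 17.1. The part of these markers and early genes in the differences was not tested. DHPG and experiment cannot be told apart in this comparison.

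The targeted gene of the knockdown set, Eif4g2, stood at 284 to 337 CPM in the knockdown inputs, 538 to 772 in untreated TurboID-PSD95 inputs and 444 to 457 in DHPG inputs. Within that set KCl raised Nptx1, Nptx2 and Scg5 and lowered Chgb in the inputs, 4 of 8, while 19.3% of 12239 genes changed. Nptx1 went from 23.0 and 22.4 to 136 and 136 CPM, a fold of 6.04 (log2 2.59 ± 0.21 (SE), adjusted p = 1.7e-09). Nptx2 went from 57.3 and 62.8 to 108 and 102 CPM (log2 0.82 ± 0.18 (SE), adjusted p = 0.0016). No depolarized library overlapped a resting library for either pentraxin, as for 31.8% of genes upward. Scg5 (544 and 568 to 732 and 712 CPM) gave log2 0.39 ± 0.09 (SE), adjusted p = 0.0032, lost when the length trend was removed (0.21, adjusted p = 0.13) or replicate 1 of either input group was left out. Chgb (394 and 392 to 230.3 and 234 CPM) gave -0.74 ± 0.10 (SE), adjusted p = 6.9e-06. The values of Chga (-0.10 ± 0.11), Scg2 (-0.16 ± 0.08), Scg3 (-0.17 ± 0.09) and Vgf (0.15 ± 0.11) did not pass, though Scg2 did with only the groups compared (-0.17, adjusted p = 0.014). Fos rose alongside, with 174 to 176 CPM at rest and 1829.8 to 1861 after KCl.

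In the knockdown pulldowns the granins and Vgf fell, all 6 of them. Chga, Chgb, Scg2, Scg3, Scg5 and Vgf fell with KCl and Nptx1 rose, 7 of 8, with 22.2% of all genes changed. Chga, with the largest change of the 8, held 354 and 469 CPM at rest and 116 and 106 after KCl (log2 -1.88 ± 0.12 (SE), adjusted p = 2.1e-11). Scg3 went from 479 and 512 to 270.1 and 269.7 CPM (log2 -0.87 ± 0.10 (SE), adjusted p = 2.8e-07) and Scg2 from 969 and 1070.2 to 652 and 597 (log2 -0.70 ± 0.08 (SE), adjusted p = 4.5e-07). Scg5, which rose in the knockdown inputs, fell from 385 and 418 to 318 and 265 CPM in the pulldowns (log2 -0.45 ± 0.10 (SE), adjusted p = 0.0014). Vgf gave -0.65 ± 0.12, Chgb -0.82 ± 0.11 and Nptx1 1.64 ± 0.24, and Nptx2 was at 0.23 ± 0.20 (SE), adjusted p = 0.43. In this comparison 3 of 5 GABAergic markers were higher and 0 lower, and 3 of 7 astrocyte markers were higher and 1 lower. Of 5 neuronal markers 0 were higher and 1 lower, and of 7 oligodendrocyte lineage markers 1 was higher and 2 lower. Of all 12239 genes 1246 were higher and 1472 lower, and the part of these markers was not tested. Leaving out 1 library leaves an arm of 1, whose spread is then assumed to be that of the other groups. The same 7 members passed in each such fit, with Vgf at -0.34, adjusted p = 0.013 without resting replicate 2.

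Pulldown against input was then set side by side in each condition. At rest Chgb (-0.87 ± 0.10 (SE), adjusted p = 1.6e-07), Scg2 (-0.35 ± 0.08) and Scg5 (-0.36 ± 0.09) were lower and Chga was higher (0.27 ± 0.11 (SE), adjusted p = 0.047), 4 of 8, against 45.5% of all genes in either direction. Vgf (-0.23 ± 0.11 (SE), adjusted p = 0.11), Scg3 (0.10 ± 0.09 (SE), adjusted p = 0.38), Nptx1 (0.24 ± 0.24 (SE), adjusted p = 0.43) and Nptx2 (0.01 ± 0.19 (SE), adjusted p = 0.96) did not pass. The Chga call was lost without pulldown replicate 2 (0.06, adjusted p = 0.73), without input replicate 1 or 2 (adjusted p = 0.20 and 0.17), with CDS totals (0.16, adjusted p = 0.25), and at adjusted p-values of 0.052 to 0.076 with the likelihood ratio test, no low-count filter, the transcript of highest count and the length trend removed. Without pulldown replicate 1 it was 0.45, adjusted p = 0.0021. The Scg5 value turned to 0.26, adjusted p = 0.035, with the length trend removed. Vgf passed with the replicate block (-0.25, adjusted p = 0.040), CDS totals (-0.34, adjusted p = 0.018), no low-count filter (-0.27, adjusted p = 0.0089) and the length trend removed (-0.37, adjusted p = 0.014). It was at -0.54, adjusted p = 4.8e-05 without pulldown replicate 2 and at 0.03, adjusted p = 0.84 without pulldown replicate 1, while Nptx1 was at 0.74, adjusted p = 0.016 without the latter. The calls of Chga, Vgf and Nptx1 thus turned on which of the 2 resting pulldowns was kept. After KCl all 8 were lower in the pulldown, against 24.8% of all genes lower, with Nptx2 (-0.57 ± 0.19), Scg3 (-0.60 ± 0.10), Scg2 (-0.89 ± 0.08), Vgf (-1.03 ± 0.12), Chgb (-0.94 ± 0.11), Scg5 (-1.20 ± 0.10) and Chga (-1.51 ± 0.12). With the length trend removed Scg5 was at -0.45, adjusted p = 0.00076. Nptx1 held 136 and 136 CPM in those inputs and 73.6 and 81.7 in the pulldowns (-0.71 ± 0.21 (SE), adjusted p = 0.0067). Leaving out input replicate 1 put Nptx1 at -0.70, adjusted p = 0.055 and Nptx2 at -0.52, adjusted p = 0.10, and leaving out pulldown replicate 2 put Nptx2 at -0.42, adjusted p = 0.12.

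Whether the KCl response itself differed between knockdown and untreated neurons was tested as an interaction, again across experiments. In inputs no member passed, with 0.00758% of 13197 genes passing. At an unadjusted p under 0.05 there were 1 member, Nptx1, and 369 genes, and no member passed with DESeq2. The Nptx1 difference was log2 0.95 ± 0.39 (SE), adjusted p = 1, and the others were Chga (0.07 ± 0.30), Chgb (-0.02 ± 0.31), Scg2 (-0.27 ± 0.27), Scg3 (-0.27 ± 0.27), Scg5 (-0.12 ± 0.29), Vgf (0.21 ± 0.51) and Nptx2 (0.43 ± 0.64). In TurboID-PSD95 pulldowns Chga alone had a lower response in the knockdown, -1.84 ± 0.30 (SE), adjusted p = 0.0023, where 0.432% of genes did. Untreated pulldowns held 352, 401 and 401 CPM of Chga at rest and 264, 508 and 362 after KCl. Without replicate 2 of all groups the difference was -1.38, adjusted p = 1, and then no gene passed. Scg5 (-1.13 ± 0.30 (SE), adjusted p = 0.11), Scg2 (-1.09 ± 0.28 (SE), adjusted p = 0.090) and Scg3 (-1.02 ± 0.28 (SE), adjusted p = 0.12) lay in the same direction, and with DESeq2 these 3 passed too (-1.10, adjusted p = 0.026, -1.05, adjusted p = 0.012 and -0.99, adjusted p = 0.033). Chgb, Vgf, Nptx1 and Nptx2 gave -0.40 ± 0.31 (SE), adjusted p = 0.73, -0.73 ± 0.51 (SE), adjusted p = 0.68, 0.03 ± 0.39 (SE), adjusted p = 1 and -0.28 ± 0.66 (SE), adjusted p = 0.93.

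Levels in the knockdown set were mostly below those of untreated TurboID-PSD95 libraries. In resting inputs 6 of 8 members were lower, all but Scg2 and Scg5, against 2.01% of all genes lower. Chgb (394 and 392 CPM, log2 -1.72 ± 0.23 (SE), adjusted p = 0.00013), Vgf (797 and 810.4, -1.94 ± 0.39 (SE), adjusted p = 0.0068) and Nptx1 (23.0 and 22.4, -1.68 ± 0.29 (SE), adjusted p = 0.0016) were among them, each below every untreated resting input, as 26.6% of genes were. The others were Chga (-0.98 ± 0.21), Scg3 (-0.74 ± 0.20) and Nptx2 (-1.76 ± 0.48), which passed, and Scg2 (-0.59 ± 0.20) and Scg5 (-0.52 ± 0.21), which did not. Depolarized inputs were lower for Chga, Chgb, Scg2, Scg3 and Vgf (2.14% of all genes), with Scg2 (-0.86 ± 0.20), Chga (-0.91 ± 0.22), Scg3 (-1.02 ± 0.20), Vgf (-1.72 ± 0.38) and Chgb (-1.74 ± 0.23), and not for Scg5 (-0.64 ± 0.21), Nptx1 (-0.73 ± 0.27) and Nptx2 (-1.32 ± 0.47). Scg5 passed with DESeq2 (-0.66, adjusted p = 0.024) and with only the groups compared (-0.64, adjusted p = 0.043). Nptx2 passed in both of these (-1.35, adjusted p = 0.022 and -1.32, adjusted p = 0.0067) and with the replicate block (-1.46, adjusted p = 0.046). In comparisons across experiments that block joins libraries by replicate number alone, with no sample in common. Leaving out replicate 1 or 2 of all groups leaves 1 library in each knockdown group, whose spread is then assumed to be that of the other groups. None of the 5 passed without replicate 2, where estimates were -0.94, -1.80, -0.86, -0.96 and -1.69 for Chga, Chgb, Scg2, Scg3 and Vgf and 10 of 13287 genes passed (702 as reported). Without replicate 1 only Chgb did, among 53 genes. Resting pulldowns were lower for Chgb, Vgf and Nptx1, 3 of 8 (4.96% of all genes), with Chgb (-1.72 ± 0.23), Vgf (-1.39 ± 0.38) and Nptx1 (-1.10 ± 0.30). The Vgf call was lost without replicate 1, 2 or 3 (adjusted p = 0.056, 0.43 and 0.093), with no low-count filter, with the length trend removed and with only the groups compared. The Nptx1 call was lost without replicate 1 (-0.76, adjusted p = 0.29) or 2 (-1.32, adjusted p = 0.11). The values of Chga (0.14 ± 0.21), Scg2 (-0.11 ± 0.19), Scg3 (-0.03 ± 0.19), Scg5 (-0.21 ± 0.21) and Nptx2 (-1.06 ± 0.48) did not pass. Depolarized pulldowns were lower for all but Nptx2, 7 of 8 (11.0% of all genes), with Scg3 (-1.05 ± 0.20), Nptx1 (-1.08 ± 0.28), Scg2 (-1.19 ± 0.20), Scg5 (-1.35 ± 0.22), Chga (-1.70 ± 0.23), Vgf (-2.12 ± 0.39) and Chgb (-2.12 ± 0.24). Nptx2 was at -1.34 ± 0.48 (SE), adjusted p = 0.059, and passed with the likelihood ratio test, DESeq2, CDS totals and the replicate block (adjusted p = 0.026, 0.018, 0.039 and 0.025). The Nptx1 call was also lost without replicate 1 (-1.01, adjusted p = 0.083), and with only the groups compared Scg2, Scg3, Scg5 and Nptx1 did not pass (222 genes did, 2498 as reported). In resting inputs Chga, Scg3 and Nptx2 passed in no fit that left out a replicate, Nptx2 moving to -1.10, adjusted p = 0.44 without replicate 2. In a fit of only the groups compared Vgf and Nptx2 lost their calls and Scg2 (-0.60, adjusted p = 0.0095) and Scg5 (-0.53, adjusted p = 0.010) gained them, and Scg2 also passed with DESeq2 (-0.59, adjusted p = 0.027). Leaving out replicate 2 of all groups took the resting input calls to 0, with Vgf at -1.94, Chgb at -1.66 and Nptx1 at -1.49, and 2 genes passed (515 as reported). It took the depolarized pulldown calls to 1 (Chgb), with 88 genes (2498). Of the 5 GABAergic markers, 3 were lower in knockdown than in untreated inputs, resting as well as depolarized, with Gad1 at 227 to 245 CPM in inputs against 465 to 711 untreated, as was Sst, which marks a GABAergic class, at 175 to 274 against 566 to 1599 CPM. Microglial markers summed to 9.74 to 19.2 CPM in knockdown inputs against 1.28 to 4.67 untreated (2 of 5 genes tested, 0 called at rest and 1, higher, after KCl), and endothelial markers to 65.2 to 96.4 against 5.54 to 65.9 (2 of 4 tested, 0 called). Their part in these differences was not tested, and knockdown and experiment cannot be told apart.

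Over the 14 group means (log2 of CPM + 1), the lowest correlations among members were those of Nptx1. Pearson's r was 0.971 between Scg2 and Scg3, 0.951 between Chgb and Vgf, and 0.922 between Vgf and Nptx2, but 0.467 between the 2 pentraxins and 0.174 between Chga and Nptx1. Among 9212 genes with a mean of at least 10 CPM, those most like Nptx1 were Cyc1 (0.943), Dusp5 (0.928) and Baiap2 (0.927), of which Dusp5 encodes a phosphatase that acts on ERK kinases. Most like Nptx2 were Lhfpl3 (0.972), Maml3 (0.946) and Gm42669 (0.942), and most like Vgf Robo2 (0.983), Sox5 (0.978) and Maml3 (0.976). The genes nearest to Scg3 were Tgoln1 (0.96), Psap (0.959) and Ctsa (0.957), and to Scg2 Psap (0.966), Prkcsh (0.965) and Spry2 (0.965). Psap, near both, encodes prosaposin, the precursor of lysosomal saposins. Chga was most like C1qtnf4 (0.977), App (0.975) and Msantd4 (0.95), Chgb most like Clip1 (0.974), Tacc1 (0.969) and Gga1 (0.965), and Scg5 most like Tox4 (0.98), Ndufb6 (0.978) and Uqcrb (0.977). These r values are over 14 groups that differ in experiment, fraction and depth, and are a description without a test.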

How the data were processed

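Ribosome footprints of primary mouse cortical neurons were read in 38 libraries. The deposited values are raw counts: the authors trimmed reads with Rfastp, split them with fastq-multx, cut off 6-base molecular identifiers, aligned reads to mm10 with Rsubread and counted 5′ ends of reads of 25 to 100 bases (offset 0) for each exon segment of UCSC knownGene transcripts with plastid, per the file headers and the methods. Strand and the handling of multi-mapping reads are not given in the sources used here. Counts were not pooled.

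Segments were summed per transcript and the longest coding transcript of each gene was kept. The CPM values are counts over the CDS total. Tests used edgeR 4.0.16 (quasi-likelihood, TMM, filterByExpr, Benjamini-Hochberg, FDR 0.05) in R 4.3.3, with fits of the main experiment (24 libraries), the DHPG set, the knockdown set and each of the last 2 with untreated TurboID-PSD95 libraries, and a separate fit for 5′ UTR counts. The scripts were tested on simulated data. DESeq2 1.42.0 and the likelihood ratio test that the study used were alternatives, as were other scalings, filters, transcripts, a CDS length offset, fewer groups and leaving out replicates. For adjusted p-values the tool is edgeR unless another is named. The methods call the replicates of this assay biological. The labels do not name the culture of each library, so p-values measure the spread between these samples, which may be in part technical. Between replicates, chi-square per gene was 8.27 to 44.8 in the main experiment and 1.47 to 1.86 in DHPG inputs. It was 2.76 to 8.43 in DHPG pulldowns and 2.79 to 4.50 in knockdown groups. Replicates of these 2 sets were mostly closer, so their SEs and those of the main experiment are not alike. Whether these replicates are more technical was not tested.

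Input and pulldown came from the same ribosome fraction per the methods, and equal replicate numbers were taken here as such pairs, which the methods do not state. Their deviations from the group means correlated at 0.154 to 0.482 in the main experiment and between -0.048 and 0.03 in the DHPG and knockdown sets. Resting and depolarized samples of a replicate were handled together per the methods, and their deviations correlated at -0.172 to 0.153. The 8 genes and the gene lists were chosen with earlier results of these data known. All members are named in each comparison, by value or within a stated count or range. From each list up to 3 genes per direction with the smallest p are named for KCl in inputs and TurboID-PSD95 pulldowns and for TurboID-PSD95 pulldown over input (Gria1 and Gria3 as the ends of their range), and the other comparisons give counts. Labels call some DHPG and knockdown libraries cytosolic, and their lentivirus field, TurboID-PSD95, was used.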

Additional observations from a re-analysis of the deposited data

Results flagged for a closer look

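The KCl response of Chga in TurboID-PSD95 pulldowns differed between Eif4g2 knockdown and untreated neurons, by a test of the difference itself (log2 -1.84 ± 0.30 (SE), adjusted p = 0.0023). The response was -1.88 ± 0.12 in knockdown pulldowns (2 against 2 libraries) and -0.01 ± 0.20 in untreated ones (3 against 3). In inputs the same difference was 0.07 ± 0.30 (SE), adjusted p = 1. Without replicate 2 the pulldown difference was -1.38, adjusted p = 1, and over the replicates left out it lay between -2.22 and -1.38. The untreated depolarized pulldowns spread over 264, 508 and 362 CPM, and their part in the difference was not tested. Knockdown and experiment cannot be told apart here.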

How the results depend on the processing

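Outside the settings that leave out replicates, 1521 of the results for single genes kept their side of the threshold, 34 passed it only in the alternative and 36 only in the reported fit. A change of sign was counted only where either fit passed. By that rule a single result reversed: Scg5 in resting knockdown pulldowns over inputs became 0.26 with the CDS length trend removed. Of counts of members called, 185 stayed within 1.5 times and 14 did not. For KCl in TurboID-PSD95 pulldowns 1 member passed with the length trend removed and 1 in a fit of only the groups compared. These fits called 663 and 118 of all genes, against 858 as reported. For KCl in Pan-TurboID pulldowns 1 member passed with no low-count filter and 1 with the length trend removed. The latter fit called 662 of all genes, against 655 as reported. For depolarized TurboID-PSD95 pulldown over input 7 members passed with the replicate block, 0 with only the groups compared and 2 against the bait's own input. The block called 4304 of all genes and the fit of only the groups compared 55, against 2344 as reported. Depolarized knockdown pulldowns against untreated ones gave 3 with only the groups compared, a fit that called 222 of all genes (2498 as reported). For the pulldown KCl response in knockdown minus untreated, the likelihood ratio test gave 2, DESeq2 4 and no filter 3. Over all genes these fits called 149, 147 and 115, in that order, against 59 as reported. For the 5′ UTR in TurboID-PSD95 pulldowns the likelihood ratio test gave 1, library sizes from the 5′ UTR counts 1, and the replicate block 2 (Nptx1 and Vgf). Over all genes these fits called 160, 46 and 212, in that order, against 28 as reported. The causes were not tested.

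With a replicate left out in turn, members called ranged from 1 to 3 for KCl in inputs, 1 to 2 in TurboID-PSD95 and 1 to 2 in Pan-TurboID pulldowns, 0 to 6 and 0 to 5 for resting and depolarized TurboID-PSD95 pulldown over input, 0 to 5 for Pan-TurboID, 0 to 3 and 0 to 4 for resting and depolarized knockdown inputs against untreated, 1 to 2 and 1 to 7 for the pulldowns, 0 to 1 for the pulldown interaction, and 0 to 1 and 0 to 1 for the 5′ UTR of inputs and pulldowns. Over all genes, KCl in inputs gave 1999 calls and 517 to 2594 over the alternatives, resting TurboID-PSD95 pulldown over input 4055 and 16 to 5582, and depolarized 2344 and 17 to 4304. The lowest counts came without replicate 3.

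With the replicate number as a block, KCl in inputs gave 3 members and each pulldown 2, as in the reported fit. For Pan-TurboID pulldowns that block fit called 984 of 13019 genes (655 as reported). All-gene calls ran over all alternatives from 517 to 2594 in inputs (1999 as reported) and 91 to 1450 in TurboID-PSD95 pulldowns (858 as reported). In pulldown over input, a pulldown and its own bait's input share a sample by the methods. In the main experiment the block joined both baits of a condition and replicate number, not that pair alone. The block gave 7 members at rest, 7 after KCl, 6 for Pan-TurboID, 8 for DHPG, and 5 and 8 in resting and depolarized knockdown neurons. Of all genes 42.9%, 33.1%, 45.0%, 78.9%, 43.9% and 47.5% were called in those fits, in that order. Across experiments it gave 6 and 6 for resting and depolarized knockdown inputs and 3 and 8 for the pulldowns, against 4.92%, 6.17%, 10.0% and 19.8% of all genes. There the block joined equal replicate numbers of different experiments, which share no sample. Deviations of such pairs of knockdown and untreated inputs correlated at -0.027 and -0.004 at rest and 0.01 and 0.036 after KCl. With CDS totals in place of TMM the median of all genes moved by over 0.1 (log2) in the DHPG comparisons and in both knockdown pulldown over input comparisons, by -0.10 to -0.23, and with the library sizes of the 5′ UTR counts by -0.21 in inputs and -0.70 in TurboID-PSD95 pulldowns. The 5′ UTRs of the pentraxins had few footprints, the TurboID-PSD95 pulldowns of the main experiment, the ones tested, holding as few as 7 footprints of Nptx1 and 6 of Nptx2 in a library.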
